A study of Bos taurus with 3 samples.

Results

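The 41 genes described here encode the proteins that divide a cell's chromosomes between its daughters. They were taken by name as a module of mitosis and chromosome segregation genes, and all 41 were found among the 19533 genes named in the data, of which 18326 had at least 1 UMI (unique molecular identifier, 1 per captured transcript). The cells came from the rumen, the fermentation chamber of the ruminant stomach, of 3 adult lactating Holstein dairy cows. The study took ventral sac tissue, freed the cells with EDTA and enzymes, removed dead cells and prepared 1 library per cow with the Chromium 3' v3 chemistry. All 3 cows were in the same condition, so there was no treated or control group, and each cow served as 1 replicate. Non-epithelial cells were removed by the authors. The p-values below rest on 3 animals. Where the cow was a block or the differences were paired, they measure how differences within a cow vary over the cows. They do not then measure the spread of levels between cows.

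In a dividing cell, cyclins switch on the kinase CDK1, condensins and topoisomerase compact the chromosomes, and kinetochores attach them to the spindle. The anaphase-promoting complex then releases the sister chromatids, and the central spindle guides the cut between the daughter cells. In a stratified epithelium such as that of the rumen, division is a property of the deep layers, and most of these genes are transcribed late in the cell cycle, after DNA replication.

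Cows 1, 2 and 3 gave 3369, 7401 and 9958 cells, with 38912809, 94856658 and 104189434 UMIs. The keratins *KRT5* and *KRT14* had 1243591 and 850587 UMIs, against 1 to 5 UMIs for each fibroblast marker found, 3 to 563 for the endothelial ones, 25 to 452 for the immune ones and 2 to 107 for those of smooth muscle. The median mitochondrial share was 17.2%, 10.8% and 12.4% of UMIs in cows 1, 2 and 3. There were 35 barcode sequences found in 2 libraries, which concerned 70 cells. Because 3' tags mark 1 end per transcript, levels could be compared between genes without a correction for length, and they are given as UMIs per 10000 UMIs.

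Together the 41 genes made up 9.03, 3.91 and 15.8 of 10000 UMIs in the respective cows. Cow 3 was the highest and cow 2 the lowest, and the cows did not differ by any labelled factor. The 3 cows kept this order in each of the 6 groups of roles. Cells of unequal depth were compared after random thinning to 5000 UMIs, which kept 19210 cells and left out 1518 shallower ones. A gene was called detected in a cell with at least 1 UMI. No member was found in 9089 thinned cells (47.3%), exactly 1 in 5197 (27.1%), and 15 or more in 1206.

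Among the genes of cyclins, CDK1 and the anaphase-promoting complex, *CKS2*, which encodes a subunit bound to CDK1, had the highest level. It measured 0.510, 0.353 and 1.11 UMIs per 10000 in cows 1, 2 and 3. The securin gene *PTTG1*, whose product holds separase in check, measured 0.309, 0.201 and 0.692, and *UBE2C*, the ubiquitin carrier of the anaphase-promoting complex, 0.229, 0.151 and 0.739. The complex's activator *CDC20* had a mean level of 0.204 ± 0.128 (SD, n = 3 cows). The cyclins *CCNB1* (0.151 ± 0.0986), *CCNB2* (0.139 ± 0.102) and *CCNA2* (0.0798 ± 0.0478) and their kinase *CDK1* (0.0687 ± 0.0522) were the lower members of this group. The mitotic kinases were scarce. *AURKA* of the spindle poles, *AURKB* of the passenger complex, *PLK1* and the checkpoint kinases *BUB1*, *BUB1B* and *TTK* had means between 0.0437 (*TTK*) and 0.134 (*BUB1B*). Their passenger complex partner *CDCA8* (borealin) stood at 0.0601 ± 0.0412, and *BIRC5* (survivin) at 0.355 ± 0.241.

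The kinetochore gene *CENPF* had the highest level of all members, with 1.52, 0.441 and 1.97 UMIs per 10000 in cows 1, 2 and 3. *CENPA*, the histone variant that marks centromeres, varied least between cows relative to its level, at 0.240, 0.211 and 0.287. The kinetochore motor *CENPE* (0.256 ± 0.158) and the microtubule-binding *NUF2* (0.236 ± 0.175) lay close to it in the mean, while *NDC80*, the partner of NUF2 in the same complex, was at 0.0563 ± 0.0401. Of the chromosome genes, *TOP2A*, which untangles DNA strands, measured 0.708, 0.162 and 1.14. The condensin subunits *SMC4* (0.466 ± 0.210) and *SMC2* (0.400 ± 0.329) and the chromosome surface protein *MKI67* (0.457 ± 0.292) followed, and *NCAPG*, another condensin subunit, was at 0.194 ± 0.145. *SMC4* measured 0.462, 0.259 and 0.678 in cows 1, 2 and 3, and *MKI67* 0.548, 0.130 and 0.693. The order of *SMC4*, *SMC2* and *MKI67* differed from cow to cow. *SMC2* lay above *NCAPG* in each cow, at 0.238, 0.184 and 0.779 against 0.159, 0.0688 and 0.353.

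Of the spindle genes, *KIF20B* (0.390 ± 0.184) and the spindle assembly factor *TPX2* (0.290 ± 0.223) were the highest, and *KIF2C*, a kinesin that shortens microtubules, was the lowest of all 41 members, with 0.0303, 0.0113 and 0.0607. *NUSAP1*, *ASPM*, *DLGAP5*, *HMMR*, *KIF11* and *TROAP*, all of the spindle, lay between 0.0577 (*TROAP*) and 0.175 (*NUSAP1*). In the central spindle and cytokinesis group, the microtubule bundler *PRC1* had the highest mean (0.231 ± 0.128), before *RACGAP1* (0.169 ± 0.0845), *ECT2* (0.121 ± 0.0564) and the cleavage furrow protein *ANLN* (0.119 ± 0.0695). The motors *KIF23* (0.0862 ± 0.0554) and *KIF20A* (0.0512 ± 0.0305) were the lowest.

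The members were found in the same cells. For each of the 820 pairs, the number of cells with both was divided by the number that the share of each gene alone would give (the lift), in each cow. The lift was above 1 in all 3 cows for 820 of 820 pairs, against 15.8% of the 20349010 pairs of all 6380 genes that were detected in a like share of cells (1.25% to 14.9%). The median lift was 7.85 over the member pairs and 1.02 over all those pairs. By cow, the median over member pairs was 8.18, 10.0 and 5.15, lowest in cow 3, where the members were detected most. The pairs share cells and genes, so the lifts are a description and were not tested.

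*KIF11* with *KIF2C* had the highest mean lift, which rested on cow 2 (10.3, 54.3 and 8.04 in cows 1, 2 and 3, from 93 cells with both). *KIF20A* with *KIF2C* had 18.8, 46.9 and 6.93 from 59 cells. *NDC80* with *CDCA8* had 18.3, 32.5 and 6.30 from 96 cells. All 3 are pairs of rarely detected genes, and cow 2 gave the highest value in each. At the other end, *SMC4* was in each of the 4 pairs with the lowest lift, with *KIF20B* (2.69, 2.80 and 2.72), *CKS2* (3.097, 2.55 and 2.93), *CENPF* (3.07, 3.46 and 2.21) and *SMC2* (3.28, 3.27 and 2.60).

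The median lift of a member over its 40 partners was taken in each cow. It was 11.3 ± 5.25 for *KIF2C*, 10.6 ± 4.71 for *DLGAP5*, 10.6 ± 4.41 for *ASPM* and 10.3 ± 4.44 for *NDC80* (mean and SD, n = 3 cows). It was 4.10 ± 0.69 for *SMC4*, 4.93 ± 1.36 for *SMC2*, 5.02 ± 0.84 for *KIF20B* and 5.26 ± 0.92 for *CKS2*. In the mean over the cows, the latter 4 genes were also the ones most often found alone, though in cow 3 *CENPF* (14.8%) and *NCAPG* (14.2%) were alone more often than *SMC2* (12.3%) and *CKS2* (11.7%), and in cow 2 *PLK1* (37.9%) lay above *SMC2* (35.9%) and *ECT2* (35.9%) was level with it. Of the thinned cells with *SMC4*, 33.8%, 44.3% and 18.5% in cows 1, 2 and 3 had no other member, and of those with *MKI67*, 4.33%, 6.37% and 3.22%. Of the cells with *KIF2C*, 0%, 0% and 1.52% had no other member. Cells with *MKI67* held a median of 17, 14 and 16 other members, and cells with *SMC4* a median of 1, 1 and 9. A lift cannot exceed 1 divided by the larger share of its 2 genes, so often detected genes have a lower ceiling. *SMC4* was in 14.2%, 9.16% and 18.3% of thinned cells and *KIF2C* in 1.33%, 0.293% and 2.14%. The part of detection in this order was not tested.

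Only cells with at least 3 other members were then kept, to ask which members go together among cells that already had several. The lift was above 1 in all 3 cows for 814 of the 820 pairs, with a median of 1.63, and no pair was below 1 in all 3 cows. No share over pairs of other genes was taken in these cells, which still differed in how many members they held. The count is therefore given without a background and is no result about the members. The highest values belonged to *KIF20A* with *KIF2C* (2.77, 4.44 and 1.82) and *KIF23* with *KIF20A* (2.26, 4.14 and 2.27), the latter a pair of central spindle motors. The lowest belonged to *CENPA* with *SMC2* (1.18, 1.01 and 0.93) and *CENPF* with *SMC2* (1.11, 1.07 and 0.97). In cow 3 the cells with *SMC2* thus held *CENPA* and *CENPF* slightly less often than the other cells with several members did.

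The members were then ordered by the share of cells with each gene, in bins of cells by the number of members detected. That number counts the gene itself, so the shares must rise over the bins on average. Only the differences between genes are described, and they were not tested. In cells with 1 member, that member was on average over the cows most often *SMC4* (17.1%, 13.96% and 13.5% of such cells in cows 1, 2 and 3), before *CKS2* (9.08%, 14.4% and 8.07%), *KIF20B* (11.8%, 8.88% and 8.24%) and *CENPF* (5.37%, 5.23% and 14.1%). The cows differed in this order: the commonest single member was *SMC4* in cow 1, *CKS2* in cow 2 and *CENPF* in cow 3. In the mean over the cows, *CENPF* was the first to pass 50% of cells, at 5 to 9 members, where it was found in 76.5%, 65.0% and 53.9% of cells. *PTTG1*, *BIRC5*, *SMC4*, *TOP2A*, *MKI67* and *CKS2*, 6 members, passed 50% at 10 to 14 members, by the same mean. Another 11 did so at 15 or more, and 23 did not pass it in any bin. Single cows differed, with *CENPA* at 62.0% in cow 2 at 5 to 9 members and *SMC4* at 40% in cow 1 at 10 to 14.

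**Figure D1:**
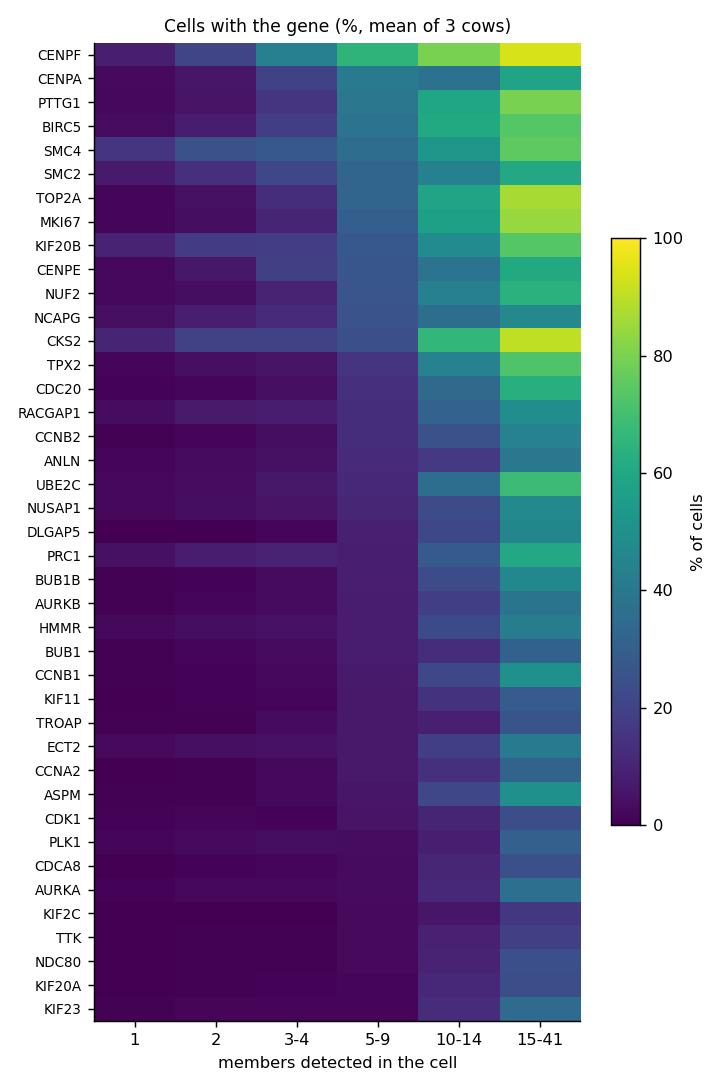
Share of cells thinned to 5000 UMIs in which each of the 41 genes was detected (color, in %, mean of 3 cows) by the number of members detected in the cell (columns), with genes ordered by their share at 5 to 9 members. *CENPF* is in 65.1% of cells with 5 to 9 members and 94.1% of those with 15 to 41, while *KIF23* goes from 1.37% to 34.9%.

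The shapes of these rises differed. *CKS2* stood at 24.4% of cells with 5 to 9 members and at 66.4% at 10 to 14. *CENPA* was in 39.7%, 62.0% and 21.7% of the cells with 5 to 9 members in cows 1, 2 and 3 and in 30.0%, 56.1% and 25.3% of those with 10 to 14, lower in cows 1 and 2 and higher in cow 3. The cytokinesis motor *KIF23* had the lowest mean share at 5 to 9 members, and was in 1.47%, 0% and 2.63% of cells with 5 to 9 members and in 39.0%, 27.5% and 38.2% of those with 15 or more. A gene of low level is missed more often in a thinned cell, so this order also follows the level of each gene. The bins held 624 cells (5 to 9 members), 398 (10 to 14) and 1206 (15 or more) over the 3 cows.

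A second order was read from other genes. Each member was placed by the number of S phase genes, out of 50 genes of DNA replication, in cells with the member minus that in cells without it, among cells with at least 3 other members. The condensin gene *SMC2* stood highest: cells with it held 8.08, 8.47 and 11.9 S phase genes in cows 1, 2 and 3, and cells without it 4.28, 4.05 and 6.38. *NUSAP1* (2.85 ± 1.09 more, SD, n = 3 cows), *AURKB* (2.46 ± 1.11), *NCAPG* (2.18 ± 0.71) and *SMC4* (1.98 ± 0.56) followed. The condensin subunits thus took 3 of the 5 highest places. At the other end stood *CENPA*, with 5.29, 4.55 and 6.28 S phase genes in cells with it and 5.78, 6.72 and 10.6 in cells without it. *CENPF* (-1.65 ± 2.93), *CCNB1* (-1.27 ± 1.87), *CCNB2* (-1.18 ± 1.71) and *CDC20* (-1.01 ± 1.93) were next. By cow, *CENPF* was at 0.41, -0.35 and -5.00 and *CDC20* at 0.43, -0.27 and -3.20, so their low means rest on cow 3. Those of *CCNB1* and *CCNB2* rest mostly on it too, at -3.42 and -3.15 in cow 3. Others of the cyclin, CDK1 and anaphase-promoting complex group lay above 0 on average, such as *CDK1* (1.39 ± 0.66) and *CCNA2* (1.16 ± 0.21).

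**Figure D2:**
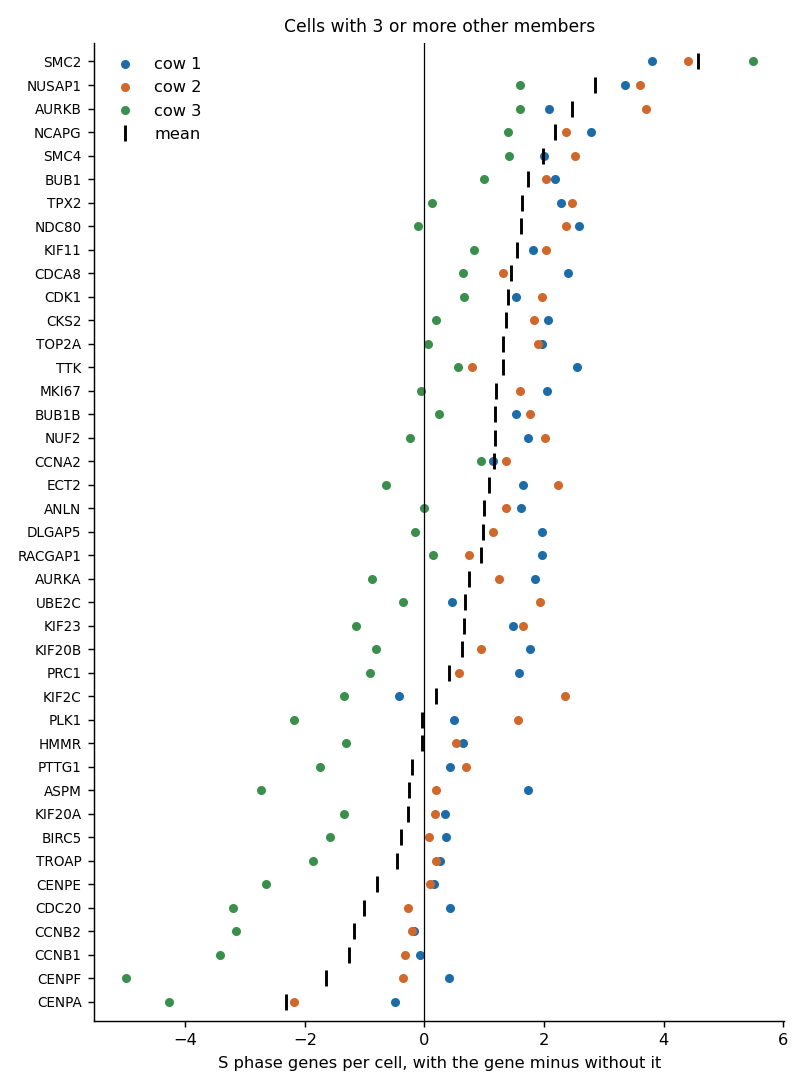
Number of S phase genes detected per cell (of 50) in cells with each of the 41 genes minus that in cells without it, among thinned cells with 3 or more other members; points are cows and bars their mean. *SMC2* lies between 3.80 and 5.50 in the 3 cows and *CENPA* between -4.27 and -0.49, and cow 3 gives the lowest value for 40 of the 41 genes.

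The difference was above 0 in all 3 cows for 16 members and below 0 in all 3 for 3 (*CENPA*, *CCNB1* and *CCNB2*). The same was taken over 2941 genes that were neither members nor S phase genes, with other mitosis genes left in. Each had at least 20 such cells in each cow. Of those genes, 23.5% were above 0 and 17.8% below 0 in all 3 cows. The 5th and 95th percentiles of those genes were -0.96 and 1.67. Of the members, 6 lay above that range and 5 below it. Cow 3 stood apart, with 25 of the 41 members below 0, against 4 in cow 1 and 5 in cow 2. The rank correlation of the order between cows was 0.678 for cows 1 and 2, 0.806 for cows 1 and 3 and 0.791 for cows 2 and 3, over 41 genes that share cells.

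Cells were next compared by 3 genes: *GJA1*, the gap junction protein connexin 43 and the study's marker of its channel-gap-like cells, *DLK2*, its marker of granule cells, and *KRT15*, a keratin of the basal layer. *KRT15* had a UMI in 20686 cells (99.8%), so that a class of *KRT15*-positive cells held nearly the whole matrix. *GJA1* had a UMI in 2099 cells (10.1%) and *DLK2* in 7834 (37.8%), and 438 cells had both. The *GJA1* class was therefore set as cells with *GJA1* and no *DLK2* (565, 481 and 615 cells in cows 1, 2 and 3), the *DLK2* class as cells with *DLK2* and no *GJA1* (1245, 3636 and 2515), and the *KRT15* class as cells with *KRT15* and neither of the others (1377, 3109 and 6732). A class is a set of cells with a UMI of a gene and is no cell type. The *KRT15* class was set apart by its lack of *GJA1* and *DLK2*, and not by a high amount of *KRT15*. Its *KRT15* level was 49.2, 59.8 and 53.0 in cows 1, 2 and 3. That level was 48.4, 53.8 and 49.7 in the *GJA1* class and 44.2, 53.4 and 53.0 in the *DLK2* class. The *GJA1* class was the deepest, with a median of 16332, 18172 and 13811 UMIs per cell, against 9148, 10718 and 9078 in the *DLK2* class and 9545, 12643 and 9734 in the *KRT15* class. Its median mitochondrial share was also the highest, at 22.6%, 13.8% and 14.3% against 12.2%, 9.98% and 11.5% in the *DLK2* class. The part of depth and mitochondrial share in the differences below was not tested, apart from the thinned values.

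The members were lowest in the *DLK2* class in every cow. Summed over the 41 genes, the level was 4.76, 2.32 and 12.3 UMIs per 10000 in the *DLK2* class of cows 1, 2 and 3, 9.51, 6.77 and 13.3 in the *GJA1* class, and 12.8, 4.92 and 17.3 in the *KRT15* class. The *GJA1* class exceeded the *DLK2* class by a factor of 2.00, 2.92 and 1.08, and the *KRT15* class exceeded it by 2.70, 2.12 and 1.41. In cow 3 the *GJA1* and *DLK2* classes were thus close. The paired differences were 3.40 ± 2.08 and 5.23 ± 2.75 per 10000 (SD, n = 3 cows; exact sign-flip permutation, two-sided p = 0.25 for each, the smallest that 3 cows allow). With inclusive classes, in which a cell may count in several, they were 2.85 and 2.90. Between the *GJA1* and *KRT15* classes the difference was -1.83 ± 3.21 (exact permutation p = 0.5). The *GJA1* class was the lower in cows 1 and 3 and the higher in cow 2. The cells with both *GJA1* and *DLK2* had 7.15, 4.25 and 15.1. With at least 2 UMIs asked of the class gene, the *GJA1* class of cow 3 fell under the *DLK2* class, at 8.81 against 12.7.

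**Figure D3:**
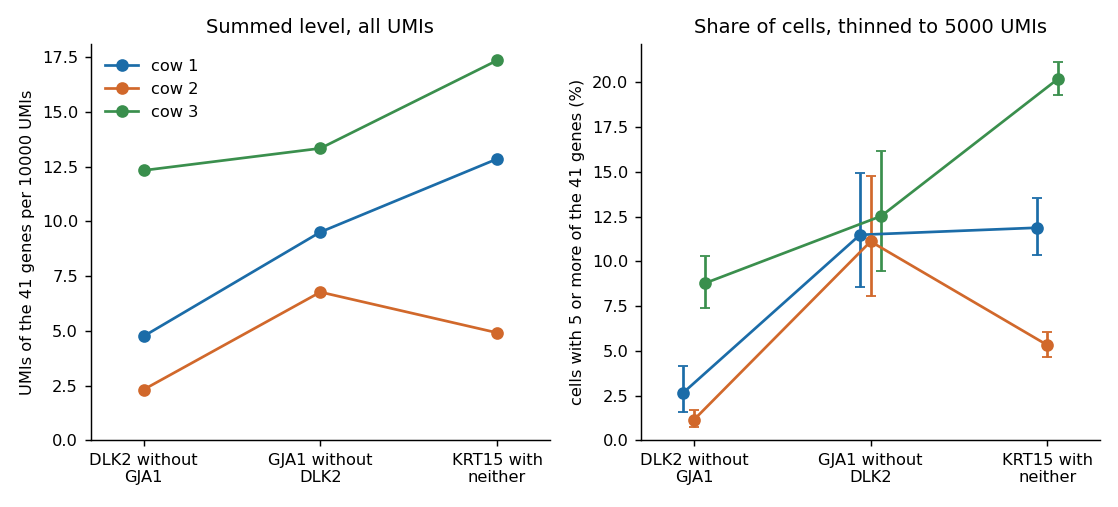
Left, summed level of the 41 genes (UMIs per 10000) in cells with *DLK2* without *GJA1*, with *GJA1* without *DLK2*, and with *KRT15* and neither. Right, percent of cells with 5 or more of the 41 genes after thinning to 5000 UMIs, with classes read from the thinned counts and exact 95% binomial intervals. Each line joins the 3 classes of 1 cow, and in all 3 cows the *DLK2* class is lowest in both panels.

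At equal depth, with the class read from the thinned counts, 5 or more members were found in 11.5% (exact 95% interval 8.59 to 14.9), 11.1% (8.09 to 14.8) and 12.5% (9.45 to 16.2) of the *GJA1* class cells in cows 1, 2 and 3. The values were 2.67% (1.61 to 4.14), 1.15% (0.760 to 1.67) and 8.77% (7.39 to 10.3) in the *DLK2* class, and 11.9% (10.3 to 13.6), 5.33% (4.68 to 6.03) and 20.2% (19.3 to 21.1) in the *KRT15* class. These classes held 418, 369 and 399 cells (*GJA1*), 712, 2345 and 1505 (*DLK2*) and 1608, 4411 and 7317 (*KRT15*) in cows 1, 2 and 3. A cell that lost its *GJA1* or *DLK2* UMIs in thinning could thus fall in the *KRT15* class. The intervals cover counting error only. The *GJA1* intervals of the 3 cows overlapped and the *KRT15* intervals did not, but the *KRT15* class held more cells, which narrows its intervals. Their overlap therefore does not measure whether the cows agree. The *GJA1* class exceeded the *DLK2* class by 7.51 ± 3.30 percentage points and the *KRT15* class exceeded it by 8.27 ± 3.71 (SD, n = 3 cows; exact permutation p = 0.25 for both). Between the *GJA1* and *KRT15* classes the difference was -0.755 ± 6.73 points (exact permutation p = 0.75), and it turned to 2.69 points without cow 3. Without thinning, the classes were read from all UMIs and so held other cells. The shares in the deeper *GJA1* class were then 21.4%, 19.8% and 24.4%, against 4.58%, 3.49% and 14.7% in the *DLK2* class and 15.5%, 9.84% and 26.7% in the *KRT15* class. The mean difference between *GJA1* and *KRT15* classes then turned to 4.50 points.

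At least 1 member was found in 45.1%, 41.5% and 51.7% of the thinned *DLK2* class cells and in 53.1%, 53.4% and 52.1% of those of the *GJA1* class. No class of these cells is known to lack the members, so the share that free RNA gives could not be measured. Near the limit of 5 members lay 353 cells with 4 and 199 with 5, beside 262, 304 and 1662 cells with 5 or more in cows 1, 2 and 3.

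Among cells with 5 or more members, the classes did not keep this order in the member UMIs a cell held, a difference that was not tested. A thinned cell had on average 30.3, 21.9 and 29.7 member UMIs in the *GJA1* class of cows 1, 2 and 3, 39.1, 23.1 and 33.2 in the *DLK2* class and 34.7, 23.0 and 29.8 in the *KRT15* class. The *DLK2* class, the lowest in its share of such cells, was the highest here in cows 1 and 3 and level with the *KRT15* class in cow 2, from 19, 27 and 132 cells. In cow 2 its cells held a median of 11 members, against 14 in both other classes. Cells with 5 or more members held 82.4%, 61.3% and 86.2% of all member UMIs of the 3 cows. They numbered 262, 304 and 1662, of which 191, 235 and 1477 were in the *KRT15* class, the largest of the classes. Such cells had 6.22, 6.69 and 9.73 S phase genes, and cells with no member 2.55, 2.50 and 3.42. In the *GJA1* class, cells with 5 or more members had 4.52, 5.71 and 5.62 S phase genes, against 5.26, 5.78 and 9 in the *DLK2* class and 6.75, 6.99 and 9.94 in the *KRT15* class. Cells with no member had 2.32, 2.23 and 2.76 in the *GJA1* class, 2.71, 2.57 and 3.28 in the *DLK2* class and 2.53, 2.48 and 3.51 in the *KRT15* class.

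Gene by gene, UMIs were summed per cow and class and compared over 11037 genes with the edgeR quasi-likelihood test with the cow as a block, with a gene called where its Benjamini-Hochberg adjusted p lay below 0.05 and its log2 fold change beyond 0.25 either way. Between the *GJA1* and *DLK2* classes, 36 of the 41 members were called higher in the *GJA1* class and 0 lower, and 0 were lower at an unadjusted p below 0.05 by edgeR or DESeq2. Of all genes tested, 24.4% were called higher and 25.0% lower. The median log2 fold change was 0.91 over the members and -0.02 over all genes. Between the *KRT15* and *DLK2* classes, 41 of 41 were called higher, against 7.38% of all genes called higher, 5.27% called lower and 12.6% called either way, with a median of 0.93 against -0.01. Since the members were found in the same cells, these calls are not independent of each other. Without the cow as a block the same contrasts called 1 and 0 members higher (2.44% and 0%, against 6.74% and 0.0272% of all genes), and 4 and 1 had an unadjusted p below 0.05. With cow 1 left out they called 25 and 14 members higher, against 20.3% and 3.65% of all genes. With cow 2 left out they called 20 and 17, against 20.2% and 2.52%, and with cow 3 left out 41 and 41, against 23.4% and 7.12%. With at least 2 UMIs asked of the class gene they called 18 and 25 higher, or 43.9% and 61.0% of the members against 24.3% and 6.83% of all genes. The median of the members in these contrasts was 0.79 and 0.76 without cow 1, 0.62 and 0.82 without cow 2 and 1.50 and 1.39 without cow 3.

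**Figure D4:**
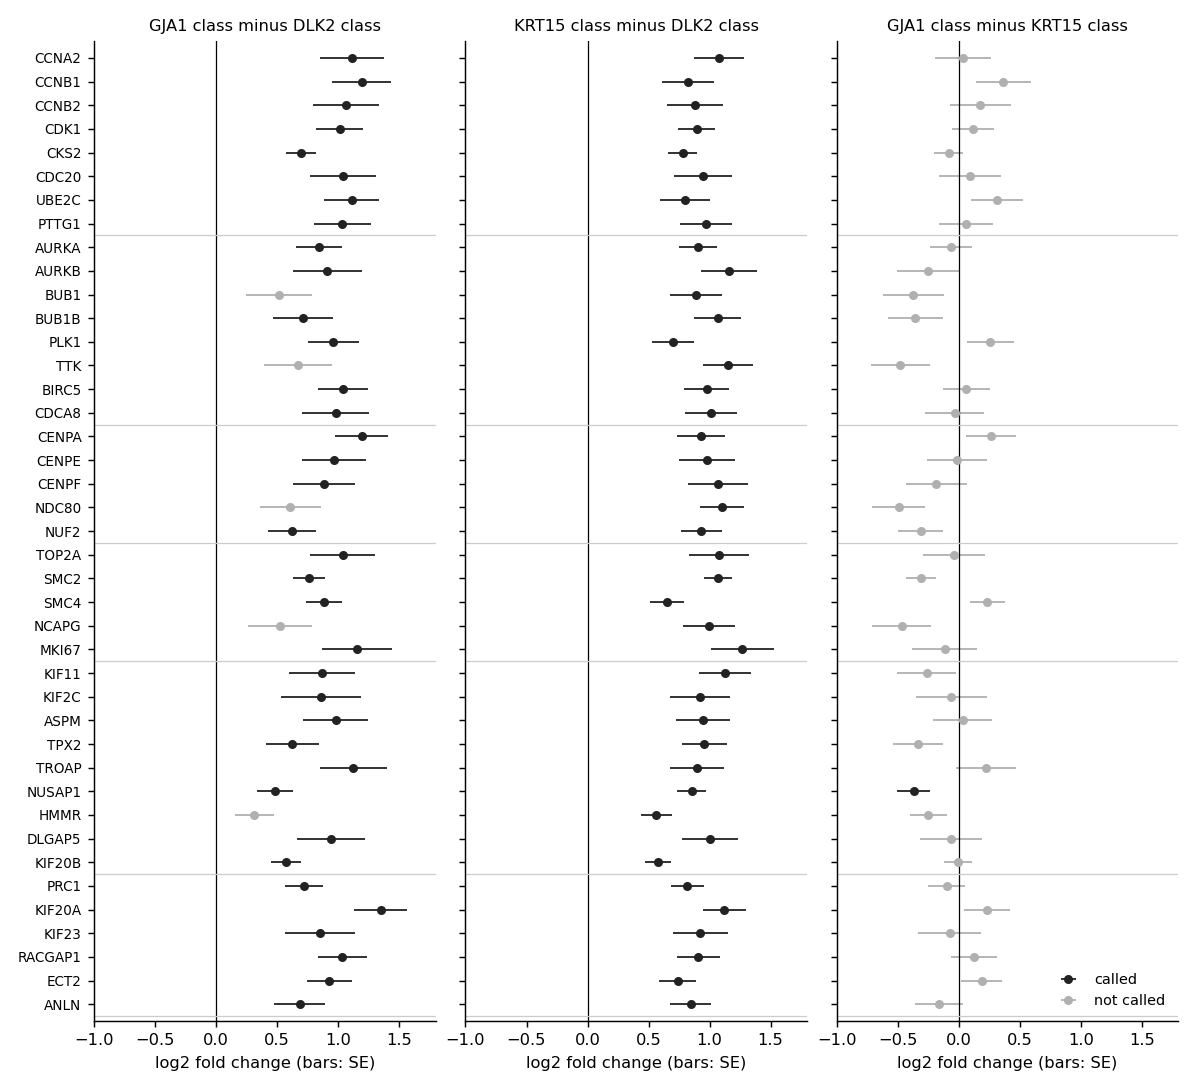
Log2 fold changes of the 41 genes with their SE in 3 contrasts of sums per cow and class (n = 3 cows, edgeR), grouped from top to bottom by cyclins and the anaphase-promoting complex, kinases and passenger complex, kinetochore, chromosome condensation, spindle, and cytokinesis. Black points were called and grey points were not. Points of the first and second contrast all lie above 0, and those of the third lie between -0.49 and 0.37.

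In the group of cyclins, CDK1 and the anaphase-promoting complex, 8 of 8 genes were called higher in the *GJA1* than in the *DLK2* class. *CCNB1* measured 0.186, 0.136 and 0.260 UMIs per 10000 in the *GJA1* class of cows 1, 2 and 3 and 0.0828, 0.0276 and 0.202 in the *DLK2* class. Its values were higher in the *GJA1* class in each cow, and the log2 fold change was 1.19 (SE 0.24, edgeR adjusted p = 0.0013). *UBE2C* rose by 1.11 and *CKS2*, the least changed of the group, by 0.70 on the log2 scale.

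The mitotic kinases and passenger complex had 6 of 8 genes called. *BIRC5* measured 0.340, 0.285 and 0.550 in the *GJA1* class and 0.153, 0.0831 and 0.476 in the *DLK2* class, a log2 fold change of 1.04 (SE 0.21, edgeR adjusted p = 9.9e-04). The checkpoint kinases *BUB1* (0.51, SE 0.27, adjusted p = 0.14) and *TTK* (0.67, SE 0.28, adjusted p = 0.062) were not called by edgeR. *BUB1* was at 0.0674, 0.0567 and 0.132 in the *GJA1* class and at 0.0457, 0.0177 and 0.144 in the *DLK2* class, so that cow 3 went the other way.

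In the kinetochore group, 4 of 5 genes were called, with *CENPA* at 0.316, 0.378 and 0.272 in the *GJA1* class and 0.112, 0.116 and 0.240 in the *DLK2* class. Its log2 fold change was 1.19 (SE 0.22, edgeR adjusted p = 6.1e-04). *NDC80* was not called (0.61, SE 0.25, adjusted p = 0.058). Among the chromosome genes, 4 of 5 were called, from *SMC2* (0.76) to *MKI67* (1.15), which was at 0.542, 0.287 and 0.548 in the *GJA1* class and at 0.221, 0.0641 and 0.487 in the *DLK2* class. *NCAPG* was not called (0.53, SE 0.26, adjusted p = 0.11), with 0.237 in the *GJA1* and 0.295 in the *DLK2* class of cow 3.

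Of the spindle genes, 8 of 9 were called, from *NUSAP1* (0.48) to *TROAP* (1.12), and *HMMR*, a microtubule-binding protein, had the smallest difference of all members (0.31, SE 0.16, edgeR adjusted p = 0.12). In the cytokinesis group 6 of 6 were called. *KIF20A* had the largest change of all members, with 0.0718, 0.0389 and 0.0872 in the *GJA1* class and 0.0276, 0.00871 and 0.0512 in the *DLK2* class, a log2 fold change of 1.35 (SE 0.22, adjusted p = 2.1e-04). In plain levels per 10000 UMIs, all 41 members were higher in the *GJA1* class in cows 1 and 2, and 32 were in cow 3. The 9 lower ones there were *CENPF*, *TPX2*, *BUB1*, *KIF23*, *NCAPG*, *NDC80*, *NUF2*, *ANLN* and *HMMR*. Of these, *CENPF*, *TPX2*, *KIF23*, *NUF2* and *ANLN* were among the members called higher. The calls used sums scaled by a further factor (TMM), which plain levels leave out. In cow 3 it was 0.977 for the *GJA1* and 1.06 for the *DLK2* class, which lowers the *DLK2* class against the *GJA1* class. Plain levels near each other in cow 3 therefore do not show the direction on the scale of the calls. Of all genes tested, 25.0% were higher in the *GJA1* class in all 3 cows, against 32 of the 41 members.

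In the contrast of the *KRT15* and *DLK2* classes, all 41 members were higher in the *KRT15* class in each of the 3 cows, against 20.9% of all genes tested. *MKI67* had the largest change, with 0.875, 0.162 and 0.785 UMIs per 10000 in the *KRT15* class and a log2 fold change of 1.27 (SE 0.26, edgeR adjusted p = 0.0064). *AURKB* (1.16), *TTK* (1.15) and *KIF11* (1.13), the motor that pushes the spindle poles apart, came next. *TTK* was at 0.0685, 0.0181 and 0.0893 in the *KRT15* class and at 0.0181, 0.00754 and 0.0512 in the *DLK2* class. *HMMR* (0.56), *KIF20B* (0.58) and *SMC4* (0.65) had the smallest changes.

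Between the *GJA1* and *KRT15* classes, 1 of the 41 members was called, *NUSAP1*, which was lower in the *GJA1* class by -0.37 (SE 0.14, edgeR adjusted p = 0.045), where 36.9% of all genes were called. It measured 0.138, 0.0834 and 0.243 in the *GJA1* class and 0.254, 0.0868 and 0.320 in the *KRT15* class. *NUSAP1* was not called by DESeq2 (adjusted p = 0.078), nor with edgeR when cow 1 (adjusted p = 0.25) or cow 2 (adjusted p = 0.068) was left out. The members' median was -0.06 and that of all genes -0.02, and the median of the members turned to 0.06 without cow 1, 0.07 without cow 3, 0.01 by DESeq2 and 0.15 with inclusive classes, where 32 of the 41 members and 48.2% of all genes were positive. *CCNB1* (0.37, SE 0.23) and *UBE2C* (0.32, SE 0.21) had the most positive values and *NDC80* (-0.49, SE 0.22), *TTK* (-0.48, SE 0.24) and *NCAPG* (-0.47, SE 0.25) the most negative, none of which were called. Cow 2 went the other way from the others: 37 of the 41 members were higher in its *GJA1* class, against 5 in cow 1 and 1 in cow 3. Of all genes tested, 46.8%, 37.7% and 36.5% were higher there in cows 2, 1 and 3. *AURKB*, *NUSAP1*, *SMC2* and *NCAPG*, the 4 members with the highest S phase position, were lower in the *GJA1* class in all 3 cows, as were 40.4% of all genes.

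For the wider pathway, 55 other mitosis genes and 49 S phase genes were tested. Of the other mitosis genes, 30 were called higher and 1 lower in the *GJA1* than in the *DLK2* class (median log2 fold change 0.65), where 24.4% of all genes were higher and 25.0% lower. The separase gene *ESPL1* (1.85, SE 0.20), the kinetochore gene *SPC24* (1.58, SE 0.25) and *CDCA3* (1.57, SE 0.30) had the largest changes, and the nuclear envelope gene *TMPO* (-0.46, SE 0.10) was the 1 called lower. Between the *KRT15* and *DLK2* classes 45 were higher and 0 lower, against 7.38% and 5.27% of all genes, led by the transcription factors *MYBL2* (1.62, SE 0.17) and *FOXM1* (1.49, SE 0.31) and by *CENPK* (1.39, SE 0.19). Between the *GJA1* and *KRT15* classes, where 18.6% of all genes were higher and 18.2% lower, 1 was higher, *ESPL1* (0.59, SE 0.17), and 7 lower, led by *CENPU* (-0.92, SE 0.18), *TMPO* (-0.72, SE 0.09) and *NCAPG2* (-0.62, SE 0.19).

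Of the 49 S phase genes tested, 12 were called higher and 3 lower in the *GJA1* than in the *DLK2* class, with a median of 0.19. The 12 are a share close to the 24.4% of all genes called higher in this contrast, while 25.0% of all genes were called lower. *E2F1* (2.21, SE 0.38), *TK1* (1.13, SE 0.10) and *UHRF1* (1.13, SE 0.27) were the largest, and *CDCA7* (-0.98, SE 0.12), *RFC4* (-0.50, SE 0.13) and *RPA2* (-0.27, SE 0.09) were lower. Against the *KRT15* class, 1 was higher (*TK1*, 0.42, SE 0.09) and 18 lower, with *CDCA7* (-1.05, SE 0.11), *E2F8* (-0.89, SE 0.32) and *RAD51AP1* (-0.80, SE 0.22) the largest, against 18.6% and 18.2% of all genes. In the *KRT15* class, 34 were higher than in the *DLK2* class and 0 lower, against 7.38% and 5.27% of all genes, led by *RRM2* (1.73, SE 0.22), *E2F1* (1.54, SE 0.31) and *UHRF1* (1.46, SE 0.23). The changes of *E2F1* rest on few UMIs. It was at 7.9e-04, 0.00377 and 0.0123 UMIs per 10000 in the *DLK2* class of cows 1, 2 and 3 and at 0.0210, 0.0245 and 0.0275 in the *GJA1* class. Summed over the list, the S phase level was 7.41, 8.25 and 13.1 UMIs per 10000 in the *GJA1* class of cows 1, 2 and 3, 7.003, 7.26 and 14.5 in the *DLK2* class and 9.15, 9.78 and 19.9 in the *KRT15* class. The difference between the lists was not tested.

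Because nearly every cell had *KRT15*, its amount was used in place of its presence. The thinned cells of each cow were cut into 4 bins of equal size by their *KRT15* UMIs. From the lowest to the highest bin, the summed level of the members went from 12.3 to 4.35 UMIs per 10000 in cow 1, from 4.40 to 1.75 in cow 2 and from 20.3 to 5.91 in cow 3. It went down at each step in each cow. The share of cells with 5 or more members went from 15.4% to 3.74%, from 6.80% to 1.39% and from 29.6% to 7.31%.

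**Figure D5:**
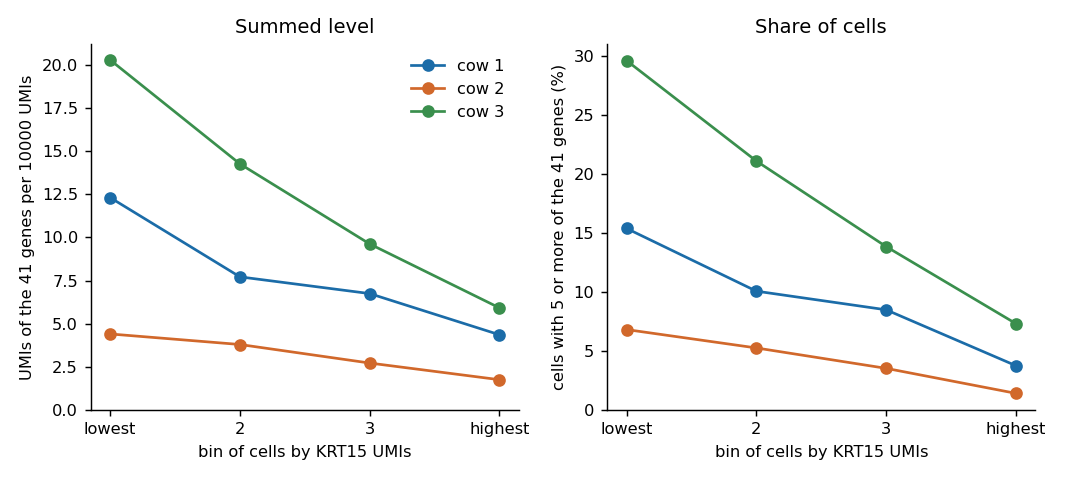
Summed level of the 41 genes (left, UMIs per 10000) and percent of cells with 5 or more of them (right) in 4 bins of the thinned cells of each cow by *KRT15* UMIs. Lines join the bins of 1 cow, and both measures go down from the lowest to the highest bin in all 3 cows.

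All 41 members were lower in the highest than in the lowest *KRT15* bin in all 3 cows, against 41.3% of the 6339 other genes detected in a like share of cells. The median level in the highest bin was 35.0%, 29.4% and 27.8% of that in the lowest for the members, and 89.6%, 86.6% and 90.2% for the other genes. The median *KRT15* count was 11, 12 and 12.5 UMIs in the lowest bins and 38, 46 and 42 in the highest. The *KRT15* class, in which the summed level was highest in cows 1 and 3, is set by the lack of *GJA1* and *DLK2*, while over all thinned cells the members were lowest where *KRT15* was most abundant. *DLK2* also went down across the bins, from 1.02 to 0.532, from 1.35 to 0.733 and from 0.510 to 0.367 UMIs per 10000. *GJA1* went down and rose again in the highest bin, at 1.07, 0.764, 0.707 and 1.39 from the lowest to the highest bin in cow 1, 0.426, 0.154, 0.153 and 0.376 in cow 2 and 0.252, 0.137, 0.112 and 0.275 in cow 3.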

How the data were processed

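UMI counts, as whole numbers for each gene in each cell, were made with Cell Ranger 3.1.0 per the labels and deposited by the authors, who also deposited natural log values of the same counts. Per the study's methods, reads were aligned to a bovine genome with Ensembl annotation, cells with few or very many genes, many UMIs or a high mitochondrial share were removed, doublets were sought with DoubletFinder, and non-epithelial cells were taken out. No doublet caller was run here. The deposited natural log table, ln of 1 plus UMIs scaled to 10000 per cell, gave the gene names, and it matched the counts within 1e-06 in every row. The most genes in a cell were 3998. Of the cells with 5 or more members (not thinned), 16.6%, 15.0% and 6.66% had over 3500 in cows 1, 2 and 3, against 0.658%, 0.338% and 0.150% of cells with none. The cells with 5 or more members were also deeper, with medians of 15340, 17354 and 13754 UMIs against 7311, 10168 and 7994. Whether the upper limit on genes removed cells with members was not tested.

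Cells were assigned to cows by barcode suffix, which was assumed to be the number in the sample title, since no other map from cells to samples was used here. The members, lists and classes were chosen with earlier results of these data known. Classes of cells with exactly 1 of *GJA1*, *DLK2* and *KRT15* had been planned, but they left no cell with *DLK2* alone, so the classes were reset after the data were seen, as were the *KRT15* bins and the pairs within cells with 3 other members. Counts were summed per cow and class, without the 3 class genes, and fitted with edgeR 4.0.16 (R 4.3.3, TMM, filterByExpr, quasi-likelihood test, Benjamini-Hochberg over 11037 genes), with class and cow. The sums are paired, since the classes are cells of the same 3 cows: after the class means were taken out, sums of the same cow correlated at 0.681 to 0.901 and sums of different cows at -0.423 on average. The common biological coefficient of variation was 0.0643 with the cow as a block and 0.302 without. Python 3.11.15, numpy 2.4.6, scipy 1.17.1 and pandas 2.3.3 did the rest. Per cow, depth was 38912809 to 104189434 UMIs, and precision rests on 3 cows.

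Genes named singly were all members, the class genes, the 3 most changed called genes of each other list and those called against most of their list, and 10 genes outside the lists that went most with the members, of which 1 is not reported here. The alternatives were DESeq2 1.42.0, no filter on low counts, no block, each cow left out, classes from 2 UMIs, inclusive classes, other depths and limits on members per cell, and sums without *MKI67* and *TOP2A*. Of the lists, 1 S phase gene and 2 other mitosis genes were not found by name. Motifs in promoters and proteins were not analysed here.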

Additional observations from a re-analysis of the deposited data

How the results depend on the processing

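All 41 members kept a positive log2 fold change in the *GJA1* and *KRT15* against *DLK2* contrasts under every alternative run, but the number called did not hold. Without the cow as a block, the members called numbered 1 (*GJA1* against *DLK2*), 0 (*KRT15* against *DLK2*) and 0 (*GJA1* against *KRT15*), and all genes called 1383, 3 and 408. At an unadjusted p below 0.05, edgeR without the block gave 4, 1 and 0 members. DESeq2, which kept the block, gave 40, 41 and 1. With classes from 2 UMIs the members called numbered 18 higher, 25 higher and 4 lower (43.9%, 61.0% and 9.76%, against 24.3%, 6.83% and 19.4% of all genes in the same direction). Leaving out 1 cow at a time gave 20 to 41, 14 to 41 and 0 to 5 members and, over all genes, 4291 to 5163, 429 to 1325 and 3038 to 3588. In the first and second contrast, leaving out cow 1 gave 25 and 14 members higher (20.3% and 3.65% of all genes), cow 2 gave 20 and 17 (20.2% and 2.52%), and cow 3 gave 41 and 41 (23.4% and 7.12%). DESeq2 called 39, 31 and 0 members and, over all genes, 4833, 928 and 3409.

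Between the *GJA1* and *KRT15* classes, other settings called 13 members without a filter on low counts (2 higher, 11 lower, where the median of all genes moved from -0.02 to -0.14, and 10.7% of all genes were called higher and 14.1% lower), 4 with inclusive classes (all higher, 9.76% against 17.6% of all genes) and 2 at 5000 UMIs, where all genes called numbered 2633. *NUSAP1* kept its direction in each but had an adjusted p of 4.1e-04 to 0.82 and was called in 3 of the 9 alternatives (no filter, without cow 3 and classes from 2 UMIs). Without thinning, the share of cells with 5 or more members differed by 14.3 points between the *GJA1* and *DLK2* classes. Differences in summed level moved by less than 1 SD over the cows, but that SD is wide. With inclusive classes, *KRT15* minus *DLK2* was 2.90 and *GJA1* minus *KRT15* -0.050, and with classes from 2 UMIs *GJA1* minus *DLK2* was 2.03 (exact permutation p = 0.5). The share in the *GJA1* minus the *KRT15* class turned to 2.69 points without cow 3 and 4.50 without thinning. Members above 0 in S phase position numbered 28, and 21 to 38 otherwise, the highest without cow 3. Depth limits the rare members such as *KIF2C*, which had 20 cells with 3 other members in cow 2.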

Other observations

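Other genes followed the cells with 5 or more members. Outside the lists, the 10 genes with the largest log2 ratio of level in those cells to cells with no member, at 5000 UMIs, were led by a gene named only as ENSBTAG00000020100 (7.26 ± 0.88, SD, n = 3 cows). It was found in 52.3%, 27.3% and 32.6% of the cells with 5 or more members in cows 1, 2 and 3. *HJURP* (6.61 ± 0.93), the chaperone that places CENPA at centromeres, was among them. *PCLAF* (6.42 ± 0.46), which binds the replication clamp, was found in 31.3%, 39.1% and 52.2% of those cells. *DIAPH3* (6.37 ± 0.74), a formin of the actin network, *IQGAP3* (6.35 ± 0.42), *ESCO2* (5.99 ± 0.77), which acetylates cohesin, *MXD3* (5.93 ± 0.89), *MTFR2* (5.67 ± 0.61) and *PLK4* (5.58 ± 0.33), the kinase of centriole duplication, were others. Of the 4772 genes other than members found in at least 5% of those cells in each cow, 49.5% were higher there than in cells with no member in all 3 cows. These values were not tested. Several rest on few UMIs in cells with no member, such as 1, 11 and 5 for *HJURP* in cows 1, 2 and 3, where a count under 3 was set to 3.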
